A study of Mus musculus with 16 samples.

Results

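Antibody constant region genes encode the part of an antibody that sets its class. They were followed here in splenic B cells of mice, comparing 4 RNA-seq libraries labelled KO with 4 labelled Flox. The set was defined by name and holds 10 genes: the heavy chain genes Ighm, Ighd, Ighg3, Ighg1, Ighg2b, Ighg2c, Ighe and Igha, and the light chain genes Igkc and Iglc1. Of these, 9 were found among the 43432 gene rows of the deposited table, including all 8 heavy chain genes. Iglc1 was not analysed here, and the lambda gene Iglc2 is given beside Igkc in its place. KO cells lack miR-221 and miR-222, and Flox cells carry the floxed locus. All cells came from the spleen of C57B6L/J mice and were kept for 4 days with an antibody to CD40 at 500 ng/ml, IL-4 at 25 ng/ml and IL-21 at 10 ng/ml. A further 4 KO and 4 Flox samples were used for Ago2 HITS-CLIP, which maps RNA bound by the miRNA-carrying protein Ago2. The Cre driver, the age and sex of the mice and the way the B cells were purified are not given in the sources used here. Nothing in the labels says that the numbered samples came from separate animals, so the p-values below measure the spread between these samples only.

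A naive B cell makes IgM and IgD from a long heavy chain transcript that is spliced to the Ighm or the Ighd constant exons. After activation DNA is cut at switch regions, and the cell joins its variable exon to a constant gene further along the locus, so that it makes IgG, IgE or IgA with the same antigen binding site. IL-4 with CD40 signals is known to direct mouse B cells to IgG1 and IgE, interferon gamma to IgG2c, and TGF-beta to IgG2b and IgA. Heavy chain constant genes other than Ighd are also transcribed without a variable exon before switching, each from its own promoter. A read count per gene does not separate this germline transcript from the transcript of a switched cell, nor the membrane form of an antibody from the secreted form. In bulk libraries, fewer cells of a class and less RNA per cell cannot be told apart.

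The 2 miRNAs removed in KO cells are shown because the pairing of Ago2 to a transcript is set mainly by the seed, and both share it. The mature sequences are from RefSeq (GRCm38.p6, chrX:19146307-19146329 and chrX:19146901-19146923, minus strand), 5′ to 3′, with the seed at bases 2 to 8 in capitals.
mmu-miR-221-3p: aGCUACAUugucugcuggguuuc
mmu-miR-222-3p: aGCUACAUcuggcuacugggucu
The 7 seed bases are the same in both, and the bases after the seed differ between them.

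Library depth was 22947689 to 39236132 reads in KO and 25421025 to 39616596 reads in Flox. The miRNA genes themselves were hardly read. Mir221 was at 0 reads throughout KO and at 0, 0, 3 and 1 in Flox 1 to 4, while no read fell on Mir222 in any library, where a count of 0 allows up to 3 reads. The neighbouring predicted gene Gm14636 separated the labels, with 288, 220, 238 and 248 reads in KO 1 to 4, against 1, 2, 1 and 3 reads in Flox 1 to 4. B cell markers summed to 2951 to 3762 CPM (reads scaled to a common library total) in KO and 3501 to 3698 CPM in Flox. T cell markers summed to 178 to 211 CPM in KO and 174 to 198 CPM in Flox, nearly all of it Thy1 and Lck, while Cd3d, Cd3e, Cd3g, Cd4 and Cd8a were each at 0.42 CPM or lower. Myeloid markers summed to at most 3.37 CPM in KO and 3.15 CPM in Flox, and the natural killer and erythroid markers Ncr1, Hbb-bs, Hba-a1 and Alas2 had 0 reads. A principal component analysis of all tested genes set KO 1, KO 2 and KO 3 apart, at -38.0, -15.3 and -35.6 on the leading axis (33.5% of the variance), from KO 4 at 7.47 and Flox at 14.5 to 26.5.

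No antibody constant gene passed the test between KO and Flox at an adjusted p of 0.05 (limma-trend with Benjamini-Hochberg adjustment over 13091 genes). In the whole table the same rule called 9 of 13091 genes (0.0687%), 7 higher and 2 lower in KO. At an unadjusted p of 0.05, 1 of the 9 members passed, Ighd, which had the higher mean in KO, against 15.1% of all tested genes and 7.74% with the higher mean in KO. DESeq2, which called 1.52% of 13087 genes, and edgeR, which called 0.0687% of 13091, also called 0 of the 9 members, and each gave Ighd alone an unadjusted p under 0.05. None of the 9 had KO values clear of all Flox values, against 7.97% of tested genes. All 9 had a log2 fold change above 0, with a median of 0.16, while 48.5% of all tested genes were above 0 and their median was -0.01. The count above 0 was 9 of 9 under TMM scaling and with scaling that left out immunoglobulin genes as well, and it was 6 of 9 without KO 1, 7 of 9 without Flox 1 and 7 of 9 without KO 1 and KO 3 together. The members are not independent of one another, since they are read from the same cells.

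**Figure D1:**
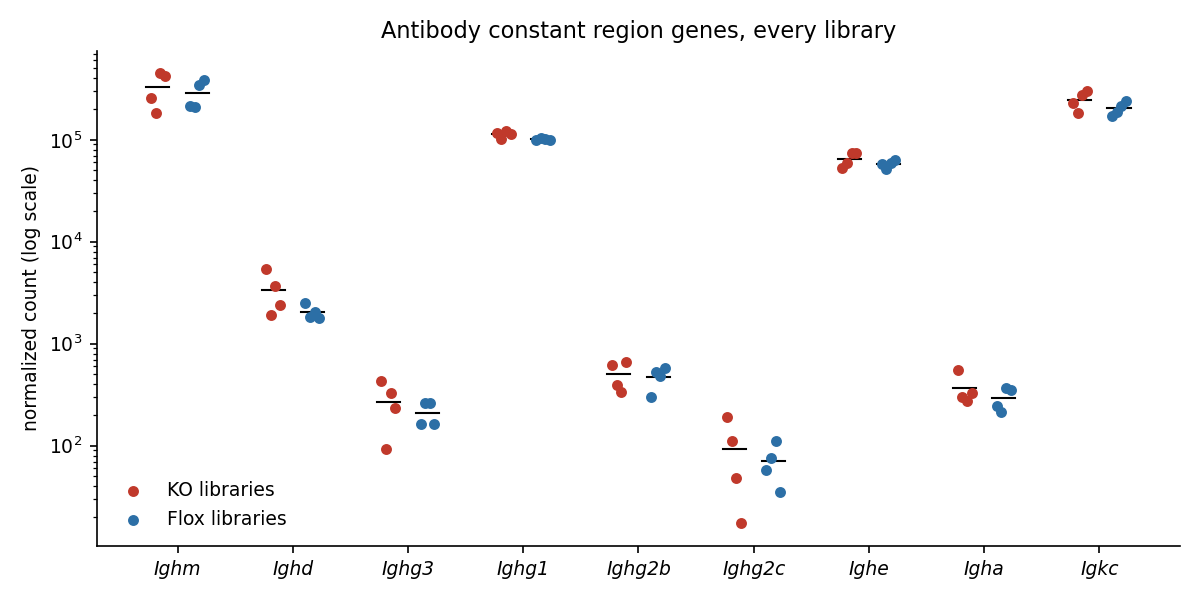
Normalized counts of the 9 antibody constant region genes (log axis) in each of the 4 KO and 4 Flox libraries, with the group mean as a black line. KO and Flox values overlap for every gene, and Ighm, Ighg1, Ighe and Igkc lie far above the other constant genes.

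The abundance order per kilobase was the same for the leading classes in every library. Per kilobase of annotated gene span, which includes introns, the mean normalized count over the 8 libraries was 423748 for Igkc, 73864 for Ighm, 20309 for Ighg1, 15349 for Ighe and 278 for Ighd. Ighg2b followed at 97.6, Igha at 61.0, Ighg3 at 48.1 and Ighg2c at 22.5 per kilobase. Each gene from Igkc down to Ighg2b stood above the next one in 8 of 8 libraries, but the ranges of Ighg1 and Ighe overlapped across libraries, as did those of Ighg2b and Igha. Igha exceeded Ighg3 in 6 of 8 libraries and Ighg3 exceeded Ighg2c in 7 of 8, with overlapping ranges. Without division by span, Ighm stood above Igkc in every library, with mean normalized counts of 308234 and 225434 over the 8 libraries. Among switched classes, the transcripts of the 2 that IL-4 is known to direct, Ighg1 and Ighe, were thus the most abundant per kilobase in both genotypes, and all other switched classes were at 132 per kilobase or lower in each library.

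Ighm encodes the mu chain of IgM, the first antibody a B cell makes. Its gene (ENSMUSG00000076617) spans chromosome 12, 113418558 to 113422730 on the minus strand of GRCm38. It had normalized counts of 258148, 185031, 448941 and 422478 in KO 1 to 4, against 214215, 210799, 341279 and 384980 in Flox 1 to 4. KO 2 was the lowest of all 8 libraries and KO 3 the highest, so the Flox range lay inside the KO range. The mean was 328649 ± 127633 in KO and 287818 ± 88784 in Flox (SD, n = 4 each), with a log2 fold change of 0.15 (95% interval -0.50 to 0.81) and an adjusted p of 0.823 by limma. It was -0.03 without KO 3, 0.40 without KO 2 and 0.01 without KO 1 and KO 3 together.

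Ighd encodes the delta chain of IgD, which mature naive B cells carry beside IgM and lose after activation. It spans chromosome 12, 113406604 to 113416324. Its normalized counts were 5416, 1896, 3713 and 2423 in KO 1 to 4, against 2503, 1829, 2041 and 1808 in Flox 1 to 4. KO 1 and KO 3 were above every Flox library, and KO 2 and KO 4 lay inside the Flox range. The mean was 3362 ± 1568 in KO and 2045 ± 323 in Flox (SD, n = 4 each), with a coefficient of variation of 46.6% in KO and 15.8% in Flox. The log2 fold change was 0.61 (SE 0.27, 95% interval 0.03 to 1.20), with an unadjusted p of 0.0418 and an adjusted p of 0.317 by limma. Without KO 1 it was 0.34, and without KO 1 and KO 3 together it was 0.08. The authors' deposited table gives 0.72 for Ighd, with an FDR of 0.293.

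Ighg1 encodes the heavy chain of IgG1, and it varied least among the members. It spans chromosome 12, 113325240 to 113330523, and its normalized counts were 116809, 100706, 121515 and 114179 in KO 1 to 4, against 98496, 103909, 102410 and 100480 in Flox 1 to 4. KO 1, KO 3 and KO 4 were above all 4 Flox libraries, and KO 2 was among them. The mean was 113302 ± 8929 in KO and 101324 ± 2350 in Flox (SD, n = 4 each), a log2 fold change of 0.16 (95% interval -0.06 to 0.38, adjusted p = 0.446, limma). It was 0.08 without KO 1 and KO 3 together.

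Ighe encodes the heavy chain of IgE, the class that arms mast cells and basophils, and spans chromosome 12, 113269260 to 113273248. It had normalized counts of 52443, 58532, 74767 and 73357 in KO 1 to 4, against 57365, 51183, 59089 and 63098 in Flox 1 to 4. KO 3 and KO 4 exceeded every Flox library, while KO 1 and KO 2 lay within the Flox range. The mean was 64775 ± 11024 in KO and 57683 ± 4955 in Flox (SD, n = 4 each), a log2 fold change of 0.16 (95% interval -0.13 to 0.44, adjusted p = 0.565, limma). It was 0.08 without KO 3, 0.09 without KO 4, 0.10 without Flox 2 and 0.25 without KO 1.

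The other switched classes were read at 658 normalized counts or fewer. Ighg2c, the class linked to interferon gamma, had the widest spread, at 189, 112, 48.6 and 17.4 normalized counts in KO 1 to 4, against 57.9, 75.9, 112 and 35.1 in Flox 1 to 4. KO 1 was its highest library and KO 4 its lowest, and they rest on 179 and 23 reads. Its log2 fold change of 0.02 had a 95% interval of -1.34 to 1.38. Ighg3 ran between 93.9 and 430 normalized counts in KO and between 162 and 262 in Flox, with a log2 fold change of 0.20 (95% interval -0.67 to 1.06). Ighg2b ran between 333 and 658 in KO and between 298 and 573 in Flox, with a log2 fold change of 0.07 (95% interval -0.48 to 0.62). Igha, the gene of the mucosal class IgA, ran between 273 and 557 in KO and between 214 and 365 in Flox, with a log2 fold change of 0.29 (95% interval -0.23 to 0.82) that was 0.07 without KO 1, 0.15 without Flox 2 and 0.14 without KO 1 and KO 3 together. Their adjusted p-values by limma were 0.551 for Igha, 0.828 for Ighg3, 0.914 for Ighg2b and 0.991 for Ighg2c, and the intervals leave changes of these low classes unresolved. The 4 IgG constant genes are close relatives in sequence, and how reads shared among them were counted is not given in the sources used here.

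Igkc encodes the kappa light chain, which most mouse antibodies carry, and spans chromosome 6, 70726435 to 70726966 on the plus strand. Its normalized counts were 228655, 183308, 274660 and 303606 in KO 1 to 4, against 172582, 187494, 211948 and 241219 in Flox 1 to 4. KO 3 and KO 4 were above all Flox libraries, and KO 1 and KO 2 lay inside their range. The mean was 247557 ± 52793 in KO and 203311 ± 30034 in Flox (SD, n = 4 each), a log2 fold change of 0.27 (95% interval -0.11 to 0.65, adjusted p = 0.455, limma). It was 0.16 without KO 4 and 0.41 without KO 2. Iglc2, a lambda light chain gene, had 7197, 6462, 6414 and 6976 in KO 1 to 4, against 6448, 6553, 8318 and 7676 in Flox 1 to 4, with a log2 fold change of -0.09 (adjusted p = 0.640, limma). The kappa and lambda values overlapped between the genotypes.

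**Figure D2:**
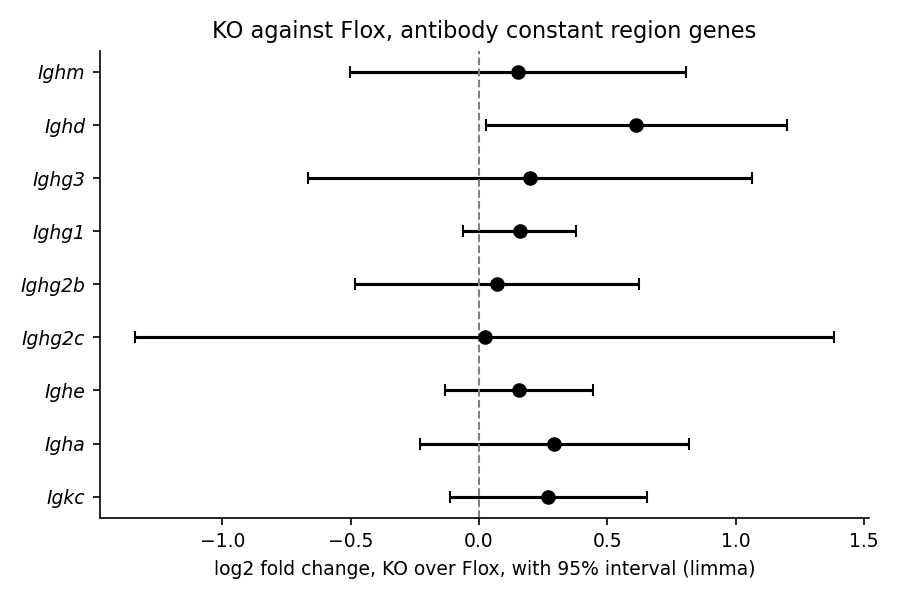
Log2 fold change of each antibody constant gene in KO over Flox (point) with its 95% limma interval (bar), 4 libraries per group. The interval of Ighd runs 0.03 to 1.20 and those of the other 8 genes include 0.

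Class composition was then compared as shares of heavy chain constant reads within each library, which do not depend on the scaling of libraries. Ighm took 59.4%, 53.3%, 69.1% and 68.8% of these reads in KO 1 to 4, against 57.4%, 57.2%, 67.4% and 69.8% in Flox 1 to 4. The mean share of 62.7% ± 7.69 in KO and 62.9% ± 6.63 in Flox (SD, n = 4 each) differed by -0.288 percentage points (exact permutation test, two-sided p = 0.943). The Ighg1 share was 26.9%, 29.0%, 18.7% and 18.6% in KO 1 to 4, against 26.4%, 28.2%, 20.2% and 18.2% in Flox 1 to 4. Its means of 23.3% ± 5.44 in KO and 23.3% ± 4.78 in Flox (SD, n = 4 each) differed by 0.0454 points (exact permutation p = 1). In each genotype, libraries 1 and 2 had the higher Ighg1 share and libraries 3 and 4 the higher Ighm share.

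The Ighe share was 12.1%, 16.9%, 11.5% and 12.0% in KO 1 to 4, against 15.4%, 13.9%, 11.7% and 11.4% in Flox 1 to 4. Its means were 13.1% ± 2.52 in KO and 13.1% ± 1.87 in Flox (SD, n = 4 each; exact permutation p = 1). All switched classes together made up 39.4%, 46.1%, 30.4% and 30.8% in KO 1 to 4, against 42.0%, 42.3%, 32.2% and 29.9% in Flox 1 to 4. The switched means of 36.7% ± 7.57 in KO and 36.6% ± 6.50 in Flox differed by 0.0731 points (exact permutation p = 1). The spread within each genotype far exceeded the difference between their means, and it limits what could have been seen. Leaving out single libraries moved the switched difference between -3.09 points (without KO 2) and 2.17 points (without KO 3).

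Ighd and the minor switched classes each made up under 1% of heavy chain reads, except Ighd in KO 1. Ighd had a share of 1.25%, 0.546%, 0.571% and 0.395% in KO 1 to 4, against 0.670%, 0.496%, 0.403% and 0.328% in Flox 1 to 4. Its difference of 0.215 points (exact permutation p = 0.4) was 0.0298 points without KO 1 and -0.00378 points without KO 1 and KO 3 together. Ighg2b averaged 0.103% ± 0.0378 in KO and 0.106% ± 0.0273 in Flox (SD, n = 4 each; exact permutation p = 0.943). Igha averaged 0.0778% ± 0.0387 in KO and 0.0649% ± 0.0059 in Flox (p = 0.657, exact permutation). The Ighg3 share was 0.0536% ± 0.0317 in KO and 0.0487% ± 0.0174 in Flox (p = 0.857, exact permutation), and that of Ighg2c 0.0215% ± 0.0196 in KO and 0.0162% ± 0.0071 in Flox (p = 0.629, exact permutation). The 95% Wilson interval reached 0.0012 to 0.0339 percentage points on either side for these 5 genes in single libraries, and at most 0.190 points for any heavy chain share; it covers counting error only. For Igha in Flox this interval reached 0.0067 to 0.0080 points on either side, beside an SD between libraries of 0.0059 points. A 95% interval reaches further than an SD, so the Igha values cannot be set against each other directly. For Ighd in KO the interval reached 0.0137 to 0.0339 points on either side, beside an SD between libraries of 0.379 points. The spread between libraries limits what the minor shares can show, and the part of read number in it was not tested.

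Within light chains, Iglc2 made up 3.05%, 3.41%, 2.28% and 2.25% of Igkc plus Iglc2 reads in KO 1 to 4, against 3.60%, 3.38%, 3.78% and 3.08% in Flox 1 to 4. KO 1, KO 3 and KO 4 lay below all 4 Flox libraries, and KO 2 lay among them. The mean was 2.75% ± 0.575 in KO and 3.46% ± 0.299 in Flox (SD, n = 4 each), a difference of -0.714 points (exact permutation p = 0.0857). Without KO 2 the difference was -0.933 points and the groups no longer overlapped (exact permutation p = 0.0286, the smallest that 3 against 4 libraries allow). KO 2 was the library that overlapped Flox, so leaving it out fixes that p, and leaving out any other single library gave exact permutation p-values of 0.0857 to 0.2. All 9 members together took 2.20%, 1.77%, 3.03% and 3.08% of all reads in KO 1 to 4, against 1.83%, 1.91%, 2.44% and 2.68% in Flox 1 to 4 (difference 0.307 points, exact permutation p = 0.429). This difference was 0.119 points without KO 4 and 0.557 points without KO 2. These were 11 shares in all, their p-values are not adjusted, and the smallest p that 4 against 4 libraries allow is 0.0286.

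**Figure D3:**
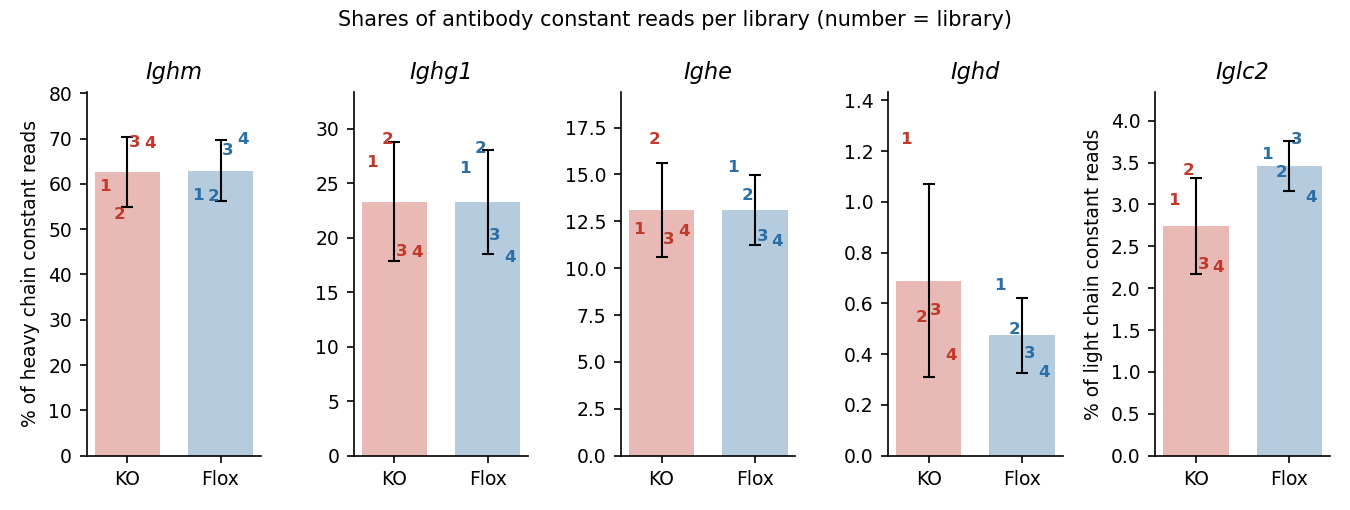
Share of Ighm, Ighg1, Ighe and Ighd in heavy chain constant reads, and of Iglc2 in light chain constant reads (percent), for 4 KO and 4 Flox libraries. Bars are means, error bars SD, and digits mark each library by number; the Ighm, Ighg1 and Ighe means are 62.7%, 23.3% and 13.1% in KO against 62.9%, 23.3% and 13.1% in Flox.

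Ratios between classes were also read within each library. Ighg1 reads per Ighm read were 0.452, 0.544, 0.271 and 0.270 in KO 1 to 4, against 0.460, 0.493, 0.300 and 0.261 in Flox 1 to 4. Ighe reads per Ighg1 read were 0.449, 0.581, 0.615 and 0.642 in KO 1 to 4, against 0.582, 0.493, 0.577 and 0.628 in Flox 1 to 4. Ighd reads per 100 Ighm reads were 2.10, 1.02, 0.827 and 0.574 in KO 1 to 4, against 1.17, 0.868, 0.598 and 0.470 in Flox 1 to 4, so library 1 was the highest of its genotype in both. Light chain reads per heavy chain read were 0.543, 0.547, 0.432 and 0.506 in KO 1 to 4, against 0.480, 0.526, 0.435 and 0.451 in Flox 1 to 4. In all 4 ratios the genotypes overlapped.

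Ighm separated the libraries by their number rather than by genotype, a grouping noticed in the values. In both genotypes it was at 341279 to 448941 normalized counts in libraries 3 and 4, against 185031 to 258148 in libraries 1 and 2. Jchain, which joins IgM and IgA into polymers in antibody-secreting cells, was at 10997 and 14394 in KO 3 and KO 4 against 5955 and 7972 in KO 1 and KO 2, and at 13192 and 13888 in Flox 3 and Flox 4 against 6921 and 7242 in Flox 1 and Flox 2. Prdm1, which encodes the plasma cell factor Blimp-1, was at 2012 and 1615 in KO 3 and KO 4 against 1034 and 704 in KO 1 and KO 2, and at 1069 and 1071 in Flox 3 and Flox 4 against 710 and 599 in Flox 1 and Flox 2. The 6 plasma cell markers summed to 1825, 1996, 1745 and 2431 CPM in KO 1 to 4, against 2009, 2137, 2737 and 2900 CPM in Flox 1 to 4, so that KO 3 had the lowest sum and the highest Ighm. Of these markers Tnfrsf17, the receptor BCMA of long-lived plasma cells, was at 0.15 CPM or lower and Sdc1 at 7.77 to 13.3 CPM. Mzb1 had normalized counts of 24597, 27940, 16235 and 29173 in KO 1 to 4, so KO 3 was its lowest library. In Flox 1 to 4 it was at 26809, 30254, 38453 and 42055. Sdc1 in KO 3 (8.56 CPM) was below KO 2 (9.06 CPM). Xbp1 was higher in libraries 3 and 4 than in libraries 1 and 2 of both genotypes. Igkc and Ighe were likewise higher in libraries 3 and 4 than in libraries 1 and 2 of the same genotype, and Ighg1 was not. What the library numbers stand for is not given in the labels, and the part of plasma cell markers in the Ighm values was not tested.

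**Figure D4:**
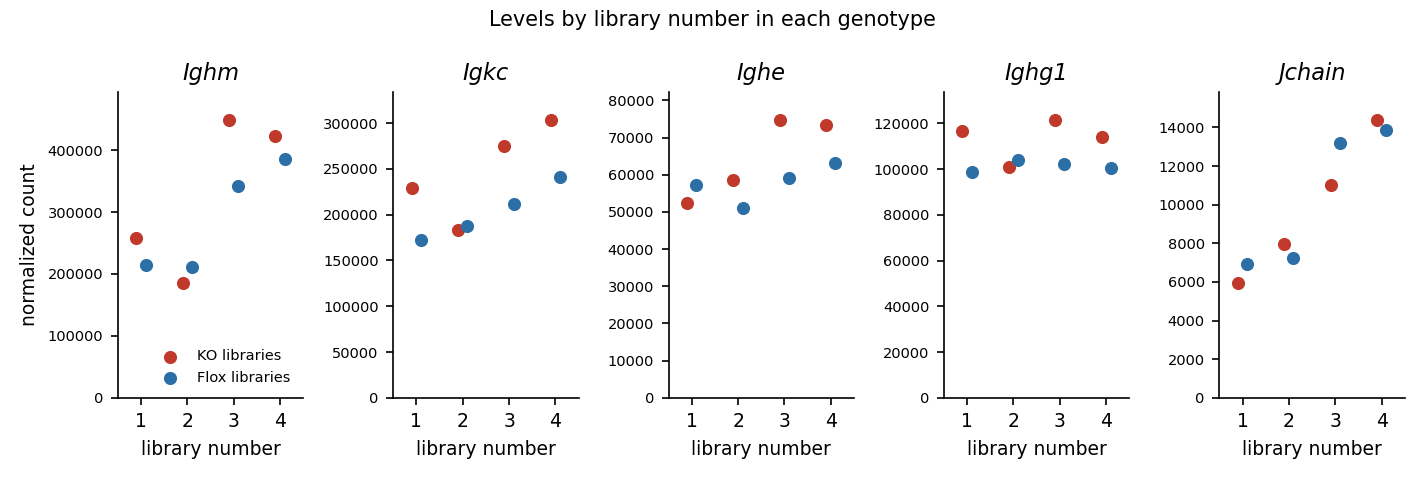
Normalized counts of Ighm, Igkc, Ighe, Ighg1 and Jchain by library number, KO points left of Flox points. Ighm and Jchain are higher in libraries 3 and 4 than in libraries 1 and 2 in both genotypes, and Ighg1 stays between 98496 and 121515 in all 8 libraries.

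The likeness of patterns across the 8 libraries is given as Pearson's r of log2 values, a description over values that share their libraries and scaling. Ighm had an r of 0.900 with Igkc, 0.805 with Ighe and 0.178 with Ighd. Ighd had an r of 0.775 with Ighg1 and 0.706 with Ighg3, and Ighg2c one of -0.739 with Ighe. Among 12882 genes outside the immunoglobulin families, those most like Ighm were Mfsd4a (r = 0.987), Hpse, which encodes heparanase (0.983), and Pon3, a paraoxonase (0.979), with Spearman's rho of 1.0, 0.976 and 0.976. Without KO 2 and KO 3, the libraries farthest from the median of Ighm, these were 0.978, 0.972 and 0.966. For Ighg1 they were Iqsec2 (0.983), Kif21b (0.981) and Adgrl2 (0.975), with 0.964, 0.938 and 0.963 without KO 1 and KO 3. Their Spearman's rho was 0.881, 0.929 and 0.810. Susd1 (0.959), Wwp2 (0.952) and Hpgds (0.948) were most like Ighe, with 0.841, 0.926 and 0.838 without KO 3 and KO 4. For Ighd they were Sept6 (0.977), Prr14 (0.965) and Nfatc1, a calcium-regulated transcription factor (0.963), with Spearman's rho of 0.905, 0.929 and 0.643. Without KO 1 and KO 3, the libraries farthest from the median of Ighd, r was 0.738, 0.740 and 0.594. Leaving out the farthest libraries narrows the range of values, so this drop does not show what the likeness rests on. Igkc was most like 4933433G15Rik (0.963), H2-T24 (0.961) and Spata13 (0.956), with 0.912, 0.948 and 0.948 without KO 4 and Flox 1. All these genes were picked as the highest of 12882 over 8 libraries, so a high r comes with the choice. Leaving libraries out afterwards reuses the same values and is no independent check.

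Genes that cut and repair switch regions were next set beside the members. Of 36 listed genes 33 were tested, 0 passed at an adjusted p of 0.05, 23 had a positive log2 fold change and the median was 0.04; DESeq2 also called 0. At an unadjusted p of 0.05, 4 genes passed, all with higher KO means (over all tested genes 15.1% passed, 7.74% with the higher mean in KO, and 48.5% were positive): Paxip1, Mdc1 and Rnf168, which act in the chromatin response to DNA breaks, and Exosc10, a subunit of the RNA exosome. Their log2 fold changes were 0.34 (SE 0.10) for Paxip1, 0.41 (SE 0.13) for Mdc1, 0.29 (SE 0.09) for Rnf168 and 0.27 (SE 0.10) for Exosc10, with adjusted p-values of 0.239 to 0.265 by limma.

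Signals and factors of class choice came to 26 listed genes and 25 tested, of which 0 passed the adjusted threshold, 17 were positive and the median was 0.09, while 5 passed at an unadjusted p of 0.05, all with higher KO means, beside the same 15.1%, 7.74% and 48.5% of all tested genes. The smallest unadjusted p-values belonged to Pax5, the factor that maintains B cell identity (0.57, SE 0.11), Stat3, which acts below the IL-21 receptor (0.24, SE 0.08), Ikzf1, which encodes Ikaros (0.29, SE 0.10), and Jak1, a cytokine receptor kinase (0.26, SE 0.09), all as log2 fold changes. Pax5 averaged 2704 ± 225 in KO libraries and 1826 ± 253 in Flox libraries (normalized counts, SD, n = 4 each), and its groups did not overlap. The same held for Stat3 and Il21r in this list, and for 7.97% of all tested genes. In the other lists it held for Paxip1, Rnf168, Supt5, Pou2f2 and Pou2af1. The adjusted p of Pax5 was 0.205 by limma and 0.00212 by DESeq2, the single call of that tool in the list. Il4ra, the IL-4 receptor chain, was at -0.18 (SE 0.08), Stat6, the factor it activates, at 0.09 (SE 0.09), and Cd40 at -0.01 (SE 0.10).

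Genes of the membrane and secreted antibody numbered 13, all tested, with 0 past the adjusted threshold, 7 positive and a median of 0.19. DESeq2 also called 0. By unadjusted p, 7 passed, 5 of them with higher KO means, where all tested genes gave 15.1% passing, 7.74% passing with the higher KO mean and 48.5% positive. Pou2f2 and Pou2af1, which encode the octamer factor Oct2 and its partner OBF-1, had log2 fold changes of 0.31 (SE 0.09) and 0.25 (SE 0.09). Ell2, an elongation factor that favours the secreted heavy chain form, was at 0.36 (SE 0.12). Sec11c, a signal peptidase subunit, was at -0.33 (SE 0.12) and Mzb1, a helper of IgM secretion in the endoplasmic reticulum, at -0.50 (SE 0.19), with 24486 ± 5830 normalized counts in KO and 34392 ± 7067 in Flox. Adjusted p-values of these 5 genes were 0.239 to 0.286 by limma. The list of further constant and joining chain genes held 2 tested genes of 4, Iglc2 and Jchain, and neither passed, at an adjusted or an unadjusted p of 0.05 (Jchain log2 fold change -0.07, SE 0.29). No gene of these lists was called by edgeR.

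Ago2 regions were lastly located over the constant genes. The deposited dCLIP output compares pooled conditions that its headers do not name, so no direction by genotype is given, and it holds 962700 regions, 407940 with a score above 0. The scores are the authors' own values for each region. Igkc held the highest of the members, 258.5 over chr6:70726435-70726769 and 243.8 over chr6:70726815-70726964, so that nearly the whole short gene was covered. Ighm had 45 regions, 22 of them scored, and its highest (207.8, chr12:113418565-113418649) lay 7 nt from the annotated 3′ end, above 99.9% of all scored regions. Ighd had 92 regions with a highest score of 38.4 at chr12:113406605-113406669, 1 nt from the annotated 3′ end. Ighg1 had 69 regions and a highest score of 45.6 (chr12:113329550-113329624), and Ighe had 32 with a highest of 24.6. The weakly read classes held few regions: 4 for Ighg2b, 2 for Ighg3, 1 for Ighg2c and 0 for Igha, none with a score above 0. The scores did not follow RNA level in every case: Ighd had a higher top score than Ighe although its normalized counts were lower in every library. The part of RNA abundance in the scores was not tested, nor was whether a score measures the amount of bound Ago2.

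The dCLIP states separated the members further. Each 5-nt bin carries a hidden state, and over all bins state 0 had a mean difference of -0.237, state 1 of -0.008 and state 2 of 0.270 between the unnamed conditions. State 0 held 90.7% of the bins of Igkc and 41.9% of those of Ighm, compared with 13.0% in Ighg1, 15.7% in Ighe, 16.6% in Ighd and 22.9% over all bins. State 2 held 0% of Igkc bins, 11.8% of Ighm, 14.0% of Ighg1, 10.6% of Ighe and 8.26% of Ighd bins, compared with 6.17% over all bins. Ighg1 held highly scored regions of both kinds, the one above in state 2 and another at chr12:113329100-113329159 (score 44.9) in state 0. The highest scored regions of Igkc and Ighm were in state 0, and those of Ighd and Ighe in state 2. All bins of Ighg2b, Ighg3 and Ighg2c were in state 1, and none of their regions had a score above 0. Whether scores follow the state rather than the amount of bound Ago2 was not tested. These are descriptions with no test, since replicates are pooled and neighbouring bins are not independent.

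**Figure D5:**
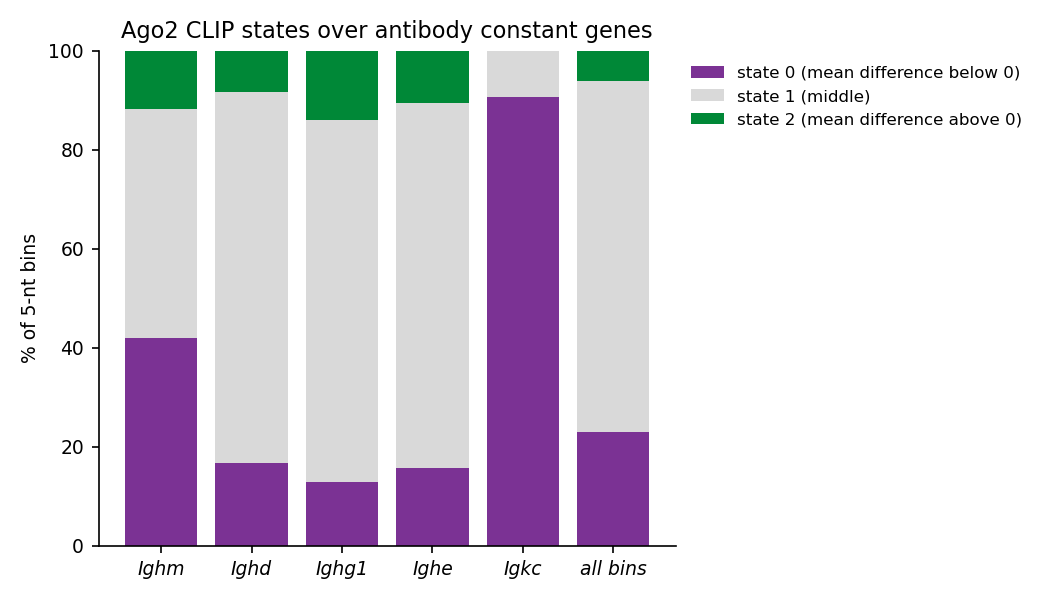
Percent of 5-nt CLIP bins in each dCLIP state (stacked bars) for the constant genes with at least 100 bins and for all bins. State 0 makes up 90.7% of Igkc bins and 41.9% of Ighm bins, compared with 22.9% of all bins; the genotype behind each state is not named.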

How the data were processed

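RNA abundance was measured by RNA-seq in 4 KO and 4 Flox samples, and Ago2-bound RNA by HITS-CLIP in 4 and 4 more. The authors deposited gene values that are counts divided by 1 size factor per library and rounded to 1 decimal, a normalized signal whose Flox columns are headed WT. The deposited table also holds the authors' log2 fold change and their p-values with FDR, per the file headers, and the deposited dCLIP files give per-bin states and differences, other than positions, and a score per region. cutadapt, Bowtie2, SAMtools, STAR, DESeq2 and DESeq are named without versions or roles in the submitters' processing notes, with mm9 as build. The table's positions are those of GRCm38: 99.97% of 20086 protein-coding genes overlapped their RefSeq GRCm38.p6 span.

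Every value came out as whole reads within 0.1 read (100% in each library), which gave the depths. limma-trend (limma 3.58.1) was run on log2 of the value plus 1 for the 13091 genes with a mean of at least 10, with a two-sided Benjamini-Hochberg threshold of 0.05; the 4 libraries per group limit the precision. Alternatives were TMM scaling, scaling without immunoglobulin genes, other filters and pseudocounts, edgeR (4.0.16), DESeq2 (1.42.0) and limma-voom on the recovered reads, a replicate block and left-out libraries. edgeR on the recovered reads called 9 genes. Shares were compared by exact permutation over libraries. Iglc2 replaced Iglc1 in the light chain share after the files had been seen. CLIP columns of per-condition tags were not used, as their conditions are not named. The fit was tested on simulated data.

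The members and lists were chosen with earlier results of these data known. All members are named, with the 3 genes most like each (given for 5 of them) and, per list, genes past the threshold or else the 4 with the smallest p. Mzb1, Il4ra, Stat6, Cd40, Prdm1 and Xbp1 were added for their roles. A result of 1 listed gene is not reported here.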

Additional observations from a re-analysis of the deposited data

Results flagged for a closer look

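The share of Ighe in heavy chain constant reads stood apart in KO 2, at 16.9%, against 11.5% to 12.1% in the other KO libraries; the gap to the nearest library was 0.895 of the range of the KO group, above Dixon's 95% critical value for 4 samples. Of 40 groups of values examined this way 1 stood out, and chance marks about 1 in 20. Without KO 2 the Ighe difference between KO and Flox was -1.25 percentage points (exact permutation p = 0.4), against 0.00702 points with it.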

How the results depend on the processing

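No member was called under any of the 19 other settings, and the lowest adjusted p of Ighd over them was 0.141 (without KO 2). The genes called in the whole table numbered 9, and 199 with DESeq2, 3 with the stricter filter, 6 without KO 1 and KO 3 together, and 8 to 17 with 1 library left out. With a replicate block 11 genes were called, and Ighd had an unadjusted p of 0.00347 and an adjusted p of 0.225. Over all 13091 tested genes, same-numbered libraries did not deviate together (correlations of -0.094, -0.065, -0.050 and 0.003, and 0 of 8 libraries closest to their own number), so the numbers were not taken as pairs. Single genes can still follow the library number, as Ighm, Igkc, Ighe and Jchain did above. These correlations over all genes do not test such a grouping.

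Member fold changes kept their sign in 159 of 171 settings. Those of Ighg2c turned with limma-voom (-0.11) and without KO 1 and KO 3 (-0.52), as did Ighg3 in the last (-0.47). DESeq2 and edgeR gave Ighg2c 0.39 and 0.38, against 0.02, and Ighg3 0.36 and 0.37, against 0.20. With 1 library left out, Ighg2c ran between -0.48 and 0.64, Ighg3 between -0.091 and 0.64, Ighg2b between -0.14 and 0.24, Igha between 0.07 and 0.41, Igkc between 0.16 and 0.41, Ighe between 0.08 and 0.25, Ighd between 0.34 and 0.85, Ighg1 between 0.12 and 0.21 and Ighm between -0.028 and 0.40. The cause was not tested.

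Over the 11 shares, the sign of the difference turned in 35 of 133 settings. It turned in 0 settings for the Iglc2 share (-0.714 points) and for the members of all reads (0.307 points). For Ighd (0.215 points) it turned in 1 setting. As differences of medians, the share differences were 1.71 points for Ighm, -0.523 for Ighg1, -0.767 for Ighe, -0.00313 for Ighg3, 0.0105 for Ighg2b and -2.0 for all switched classes. Within switched reads only, Ighg1 was at -0.0261 and Ighe at -0.0126 points. As log2 ratios Ighg1 was at -0.0022, Ighg2c at -0.15 and Ighe at -0.0061. Without KO 1 and KO 3, Ighd was at -0.0038, Ighg3 at -0.0162 and Ighg2b at 0.0043 points. With 1 library left out the ranges were -2.43 to 2.83 for Ighm, 0.0298 to 0.314 for Ighd, -0.0103 to 0.0137 for Ighg3, -1.86 to 1.69 for Ighg1, -0.0153 to 0.0149 for Ighg2b, -0.0020 to 0.0116 for Ighg2c, -1.25 to 0.765 for Ighe, -0.0039 to 0.0249 for Igha, -3.09 to 2.17 for switched classes and 0.119 to 0.557 for the members of all reads. The Iglc2 share ran between -0.933 (p = 0.0286, exact permutation, without KO 2) and -0.547 points, with p-values of 0.0857 to 0.2 with each of the other 7 libraries left out in turn.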
